A study of Rattus norvegicus with 2 samples.

Results

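The interferon-stimulated genes and RNA sensors are the genes that cells switch on after interferon signalling, together with the receptors that recognise foreign or misplaced RNA. The group was given as a list of 31 rat genes. A gene probe whose transcript accession belongs to the gene, under its current name, was found for 29 of them through 34 probes, of 15159 named genes and 30367 gene probes in all. No probe was matched to Ddx58 (now Rig1) or Herc6, so their levels were not analysed here. RMT-1 cells, clone E4 of a rat mammary tumour line kept in medium with 10% serum, were transfected transiently, 1 culture with an siRNA against Pla2g4c and 1 with a negative control siRNA. Pla2g4c encodes a cytosolic phospholipase A2. Total RNA of each was labelled with Cy3 and hybridised to 1 one-colour Agilent array, so no difference could be checked against replicates and none was tested. The series title places the work in the study of apoptosis after loss of Pla2g4c, and what was asked here is whether antiviral genes differed between a targeting and a non-targeting siRNA. Both cultures received an siRNA, and no culture without one was analysed here.

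Cytosolic helicases, endosomal Toll-like receptors, the kinase PKR and the oligoadenylate synthetases recognise double-stranded or single-stranded RNA, and several of them can respond to synthetic siRNA. Their signals lead to interferon, which acts on its receptor and activates ISGF3, a complex that includes Stat2 and Irf9. ISGF3 binds the interferon-stimulated response element (ISRE) in promoters, while interferon gamma acts through the gamma-activated site (GAS). The induced proteins block viral entry, translation, replication and release, and some of them feed back on the pathway.

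A level here is the processed signal of a probe as a percentage of the 75th percentile of all gene spots on the same array, which was 1105 on the Pla2g4c siRNA array, against 852 on the negative control siRNA array. Differences are on the log2 scale, with the value of the Pla2g4c siRNA array first and that of the negative control siRNA array subtracted. The ± is the error that the scanner software estimates for both signals, so it covers measurement within the arrays and nothing between cultures. It was nearly the same for every gene, with a median of 0.204 over all measured genes, and was larger mainly where signals were dim. A difference larger than the error is therefore close to one past a fixed size of about 0.2. A gene counted as measured where every spot of a probe was well above background on both arrays. No probe was matched to Pla2g4c, so the target itself did not check the labels. Of the epithelial markers 7 of 8 were measured, with Krt14 at 17621% and 34510% and Krt5 at 5645% and 18573% on the Pla2g4c siRNA and negative control siRNA arrays, while Krt18 was not well above background on either. Epcam and Krt8 went the other way, with differences of 1.03 ± 0.20 and 0.86 ± 0.27. Of the immune markers 6 of 11 were measured, and the defining genes Ptprc, Itgam, Cd3e and Adgre1 were well above background on neither array. The summed level of the immune markers was 1411% against 401%, mostly through Cd74, the invariant chain of MHC class II, at 1179% against 249.7%. Aif1, a macrophage marker, was also at least 2-fold higher (1.37 ± 0.20), while Cd68 and Cd14 differed by -0.39 ± 0.21 and -0.25 ± 0.20. Whether other cells took part in any difference below was not tested, and in bulk RNA fewer cells with a transcript cannot be told apart from less transcript per cell.

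The promoters of these genes carried the letters of the ISRE more often than promoters at large. The RefSeq promoter table (GRCr8, 250 bases before to 50 after each gene's start) held 23 of the 31 genes. The letters GAAANNGAAA, or TTTCNNTTTC on the other strand, were present in 13 of the 23 (56.5%), against 3.92% of all 33469 promoters. The palindromic GAS letters TTCNNNGAA were present in 6 of 23 (26.1%), against 8.87% of all. A match is a description of letters and does not show that a factor binds there. The windows below show the motif in capitals, 5′ to 3′ on the gene's strand, for the genes with the lowest differences, for a family pair, for an undetected gene and for a factor with a GAS match.
Gbp2, ISRE, chr2:234005671-234005730, plus strand: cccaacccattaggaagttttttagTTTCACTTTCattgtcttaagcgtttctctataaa
Eif2ak2, ISRE, chr6:21941113-21941172, plus strand: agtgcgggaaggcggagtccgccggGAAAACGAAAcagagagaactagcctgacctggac
Bst2, overlapping ISREs, chr16:18255058-18255123, minus strand: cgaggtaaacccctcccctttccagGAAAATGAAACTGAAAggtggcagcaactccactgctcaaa
Ifi44, first ISRE, chr2:243303832-243303891, minus strand: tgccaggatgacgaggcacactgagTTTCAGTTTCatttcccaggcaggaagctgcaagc
Oas1a, overlapping ISREs, chr12:41330400-41330465, plus strand: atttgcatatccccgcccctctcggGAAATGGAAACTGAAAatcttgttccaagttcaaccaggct
Oas1b, overlapping ISREs, chr12:41395871-41395936, minus strand: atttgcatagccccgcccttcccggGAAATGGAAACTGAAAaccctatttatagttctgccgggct
Ifit3, ISRE, chr1:241527257-241527316, plus strand: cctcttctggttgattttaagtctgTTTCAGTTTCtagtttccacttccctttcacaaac
Irf1, GAS, chr10:38417768-38417826, plus strand: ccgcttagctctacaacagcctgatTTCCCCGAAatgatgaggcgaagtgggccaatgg

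The members lay around the middle of all genes, with single genes on either side of it: Gbp2 and Eif2ak2 were lowest on the Pla2g4c siRNA array, and Oas1a and Dhx58 were highest. Of the 29 genes with a probe, 22 (75.9%) were measured on both arrays, against 59.5% of all named genes, and 7 were well above background on neither. Among the 22, 0 were at least 2-fold higher on the Pla2g4c siRNA array, where 2.91% of the 9026 measured named genes were, and 1 was at least 2-fold lower, where 3.05% were. At 1.5-fold, 1 was higher (8.69% of all genes) and 4 were lower (10.3%). The median difference of the 22 was -0.037 and that of all measured genes -0.010, with quartiles of -0.41 and 0.16 for the members and -0.27 and 0.25 for all genes. In 10 of the 22 the difference was larger than the software's error, 3 of them positive and 7 negative, against 57.1% of all genes.

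**Figure D1:**
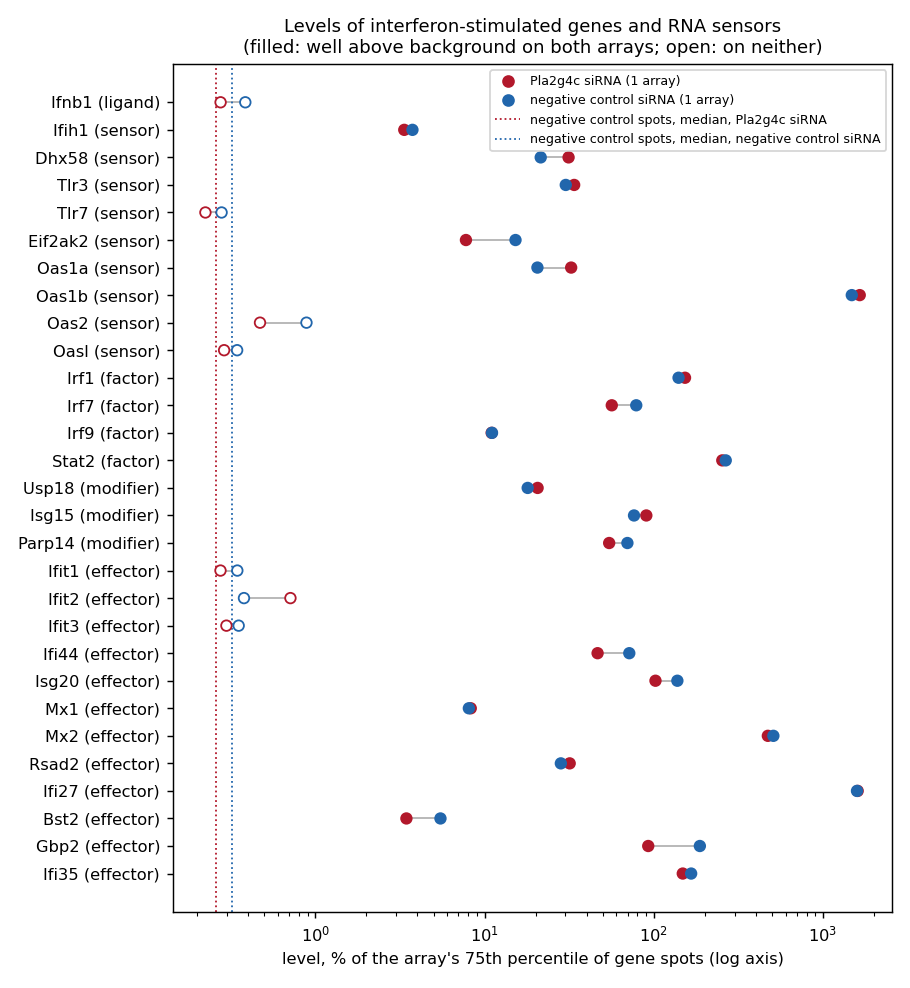
Level of each of the 29 genes with a probe on the Pla2g4c siRNA array (red) and the negative control siRNA array (blue), as a percentage of the array's 75th percentile on a log axis, with the role of each gene in brackets (factor, transcription factor; modifier, a gene of protein modification). Filled points were well above background on both arrays and open points on neither, and dotted lines mark the median level of the negative control spots, 0.260% and 0.323%. The 7 undetected genes lie below 1% and the pairs of filled points lie close together, with the widest gaps among them for Gbp2 and Eif2ak2.

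Differences below are relative to the bulk of the genes, and their sign can depend on the scaling. Scaling on the 7 spike-in RNAs added 0.55 to every gene, so that negative differences smaller than that in size became positive. It moved the median of all genes to 0.54 and the members' median to 0.51, and the authors' deposited normalized values, which added a median of 0.13 per gene, moved them to 0.12 and 0.095. Of the 22 members 10 were positive under the 75th percentile, 13 in the deposited values and 18 under spike-in scaling. Relative to the median of all genes the members' median was -0.027, which these scalings leave as it is, since each adds about the same amount to every gene. Gbp2, Eif2ak2, Bst2 and Ifi44 were negative under all 8 alternatives, and 9 members were positive under all 8. Not every alternative could move these values. No spot of a member was flagged as an outlier, and every probe of the measured members was well above background. Keeping flagged spots or dim probes therefore left each value as it was. Median scaling took the same small amount from every gene, and the brightest probe rule bears only on members with several probes.

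Interferon beta and the Ifit genes, which are among its standard targets, were not detected in either culture. Ifnb1, which encodes interferon beta, had levels of 0.254% and 0.298% in its 2 spots on the Pla2g4c siRNA array, against 0.380% and 0.390% on the negative control siRNA array. Ifit1, whose product binds the ends of foreign RNA, was at 0.275% against 0.346%, and its neighbour Ifit3 was at 0.298% against 0.352%. The negative control spots had a median of 0.260% on the Pla2g4c siRNA array, against 0.323% on the negative control siRNA array, so these genes lay near the level of probes without a target. Ifit2, of the same gene cluster, had spots at 0.508% and 0.998% on the Pla2g4c siRNA array, against 0.335% and 0.428% on the negative control siRNA array, and none of these spots was well above background. No fold is given for any of the 7 undetected genes, since none of them was well above background on either array.

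Among the RNA sensors, the cytosolic helicases Ifih1 and Dhx58 were measured on both arrays. Ifih1 encodes MDA5, which recognises long double-stranded RNA, and it was dim, with spots at 2.80% and 4.0% on the Pla2g4c siRNA array, against 3.51% and 4.0% on the negative control siRNA array. The spots of the 2 arrays overlapped, and the difference of -0.16 ± 0.27 was within the error and positive under spike-in scaling. Dhx58 encodes LGP2, a related helicase without signalling domains that tunes the other 2. Its spots were at 28.8% and 34.1% on the Pla2g4c siRNA array, against 20.7% and 22.2% on the negative control siRNA array, a difference of 0.55 ± 0.21. Both spots of the Pla2g4c siRNA array were above both of the negative control siRNA array, and the difference was 0.39 under normexp background correction and 1.09 under spike-in scaling.

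Of the endosomal receptors, Tlr3, which binds double-stranded RNA, was measured, and Tlr7, which binds single-stranded RNA, was not. Tlr3 had 2 probes, one with levels of 31.4% and 25.5% and one with 36.4% and 35.8% on the Pla2g4c siRNA and negative control siRNA arrays. They differed by 0.30 and 0.026, and the gene's difference of 0.16 ± 0.21 was within the error. Tlr7 lay at 0.224% against 0.279%, the level of the negative control spots. Tlr8 and Tlr9, the related endosomal receptors, were also well above background on neither array.

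Eif2ak2 had the lowest difference of the sensors. It encodes PKR, a kinase that binds double-stranded RNA and shuts down translation by phosphorylating eIF2alpha. One of its probes was spotted 10 times, and its spots ranged from 9.87% to 12.8% on the Pla2g4c siRNA array, against 18.5% to 22.1% on the negative control siRNA array. The second probe had spots at 5.05% and 5.35% on the Pla2g4c siRNA array, against 10.99% and 11.1% on the negative control siRNA array. No spot of either probe overlapped between the arrays, and the probes differed by -0.86 and -1.09. The gene's difference was -0.97 ± 0.22, or 1.96-fold lower, just inside the 2-fold limit. It was -0.70 under normexp background correction and -0.43 under spike-in scaling.

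Several of the oligoadenylate synthetases make a short second messenger after binding double-stranded RNA, and the members of the family differed in detection. Oas1a had spots at 32.1% and 32.8% on the Pla2g4c siRNA array, against 19.9% and 21.2% on the negative control siRNA array. The difference of 0.66 ± 0.21, or 1.58-fold, was the highest of the 22 members, and both spots of the Pla2g4c siRNA array were above both of the other array. Oas1b was bright, at 1647% against 1478% in 1 spot each, and its difference of 0.16 ± 0.20 was within the error. The windows printed above show the same pair of overlapping ISREs, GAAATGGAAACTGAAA, in both promoters, beginning 41 bases before the start of Oas1a and 59 bases before that of Oas1b. A probe of Oas1i, a further copy of the family close to Oas1a, had 33.99% and 20.5%, a difference of 0.73 ± 0.21. The levels of the Oas1a and Oas1i probes were nearly equal on each array, probe sequences were not used here, and whether each reads its own copy was not tested. Oas2, Oas3 and Oasl were well above background on neither array, at 0.471% against 0.885% for Oas2, while Oasl2, next to Oasl in the genome, was measured at 67.5% against 72.8%.

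**Figure D2:**
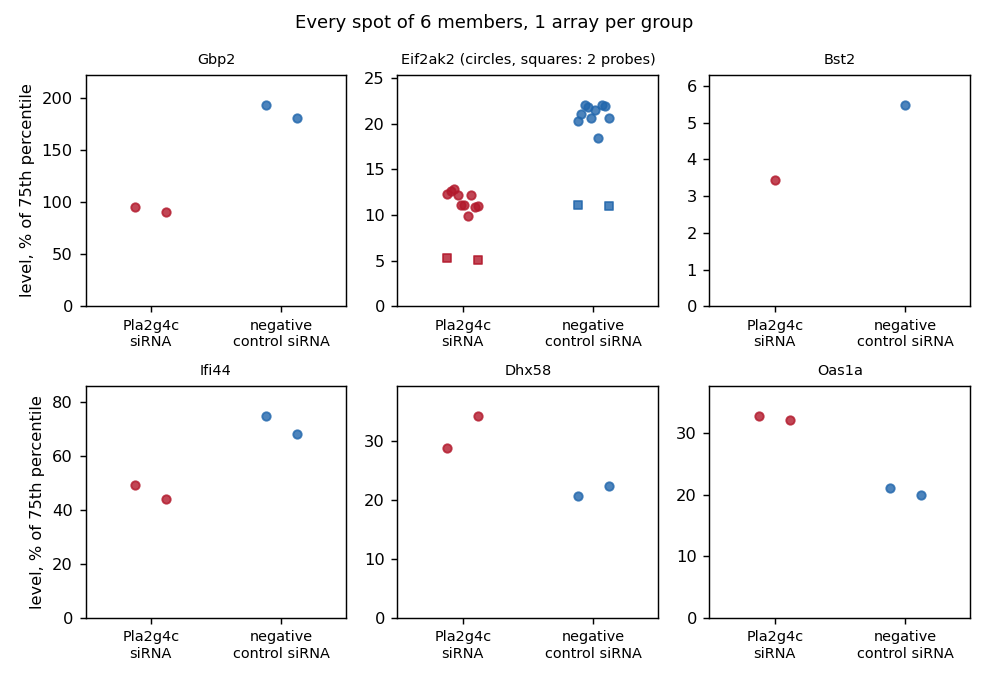
Every spot of 6 members, with the Pla2g4c siRNA array left (red) and the negative control siRNA array right (blue), as a percentage of the array's 75th percentile. For Gbp2, Eif2ak2, Bst2 and Ifi44 every spot of a probe is lower on the Pla2g4c siRNA array, and for Dhx58 and Oas1a every spot is higher. Bst2 has 1 spot per array.

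The transcription factors of the pathway differed little. Stat2, a subunit of ISGF3, had spots at 250.0% and 257.6% on the Pla2g4c siRNA array, against 252.7% and 279.9% on the negative control siRNA array, a difference of -0.068 ± 0.20. Irf9, which gives ISGF3 its DNA binding, was at 11.0% against 11.1%, a difference of -0.0064 ± 0.21. The spots of the 2 arrays overlapped for both genes, and both differences were positive in the deposited values and under spike-in scaling. Irf1, an early target of interferon gamma with a GAS match 142 bases before its start, had 2 probes at 647% and 36.1% on the Pla2g4c siRNA array, against 598% and 32.8% on the negative control siRNA array. Its probes agreed in direction, and the gene's difference of 0.13 ± 0.20 was within the error. Irf7, the factor that amplifies the interferon response, was the exception. It had spots at 53.6% and 59.3% on the Pla2g4c siRNA array, against 77.4% and 80.0% on the negative control siRNA array, a difference of -0.48 ± 0.20 with no overlap of spots. Under spike-in scaling the Irf7 difference was 0.066.

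The modifiers act by attaching or removing small proteins or ADP-ribose. Isg15, a ubiquitin-like protein that is attached to other proteins, had spots at 88.4% and 92.2% on the Pla2g4c siRNA array, against 75.2% and 77.5% on the negative control siRNA array, a difference of 0.24 ± 0.20. Usp18, which removes Isg15 from proteins and dampens the interferon receptor, had 2 probes that differed by 0.22 and 0.17, and the gene's difference of 0.19 ± 0.21 was within the error. Parp14, a mono-ADP-ribosyltransferase, had 2 probes at 280% and 10.6% on the Pla2g4c siRNA array, against 378% and 12.9% on the negative control siRNA array. Both probes were lower, with differences of -0.44 and -0.28, and the gene's difference was -0.36 ± 0.21. Its next neighbours in the GRCr8 gene order, Dtx3l and Parp9, whose products form a ubiquitin ligase complex, differed by -0.43 ± 0.34 and -0.56 ± 0.21. The 3 adjacent genes thus had negative differences of similar size, that of Dtx3l at low levels of 1.92% against 2.59%. Under spike-in scaling the difference of Parp14 was 0.19.

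Gbp2 had the lowest difference of all members. It encodes a guanylate-binding GTPase, best known as a target of interferon gamma, that coats vacuoles of intracellular microbes. Its spots were at 90.4% and 94.96% on the Pla2g4c siRNA array, against 181% and 193% on the negative control siRNA array. The difference was -1.01 ± 0.20, or 2.02-fold lower, and the spots did not overlap. It was -0.97 under normexp background correction, -0.88 in the deposited values and -0.47 under spike-in scaling, so its place past 2-fold was lost under these 3. Gbp5, the related gene nearby, was well above background on neither array.

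A further 3 effectors had negative differences larger than the error. Bst2 encodes tetherin, which holds budding viruses at the cell surface. It was dim and had 1 spot, at 3.45% on the Pla2g4c siRNA array against 5.48% on the negative control siRNA array, a difference of -0.67 ± 0.23. Ifi44, an antiviral protein of the cytoplasm, had spots at 44.0% and 49.2% on the Pla2g4c siRNA array, against 68.4% and 74.9% on the negative control siRNA array. The Ifi44 spots did not overlap, and the difference was -0.62 ± 0.20. Isg20, an exonuclease that degrades viral RNA, had spots at 101.1% and 103.4% on the Pla2g4c siRNA array, against 134.6% and 140.9% on the negative control siRNA array. Its difference was -0.43 ± 0.20 and its spots did not overlap, but it was 0.12 under spike-in scaling.

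The remaining effectors differed by less than the error. Mx1 and Mx2, dynamin-like GTPases that trap viral particles, were at 8.28% against 8.07% and at 472% against 509%, with differences of 0.037 ± 0.22 and -0.11 ± 0.20. The sign of Mx1 turned under normexp background correction, to -0.19, and that of Mx2 in the deposited values and under spike-in scaling. Rsad2 encodes viperin, a radical enzyme that makes a chain-terminating nucleotide, and it was at 31.8% against 28.2%, a difference of 0.17 ± 0.20. Ifi27, a small membrane protein, was at 1601% against 1587%, a difference of 0.013 ± 0.20 with overlapping spots. Ifi35, a binding partner of Nmi, was at 148% against 166%, a difference of -0.16 ± 0.20 that was positive under spike-in scaling.

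**Figure D3:**
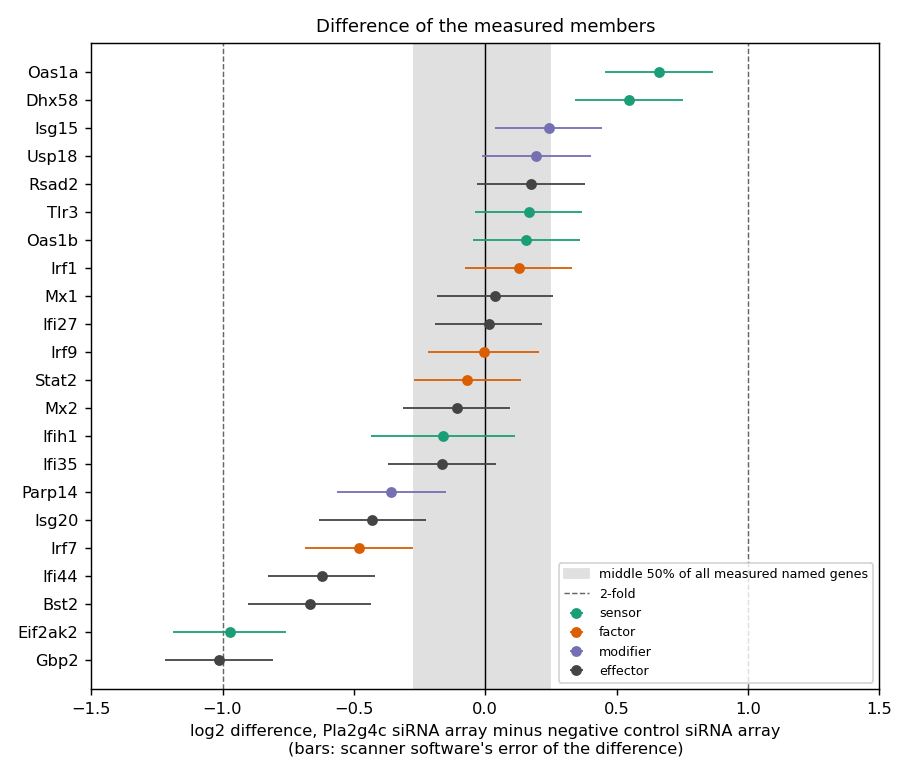
Log2 difference of the 22 measured members, Pla2g4c siRNA array minus negative control siRNA array, ordered by size and coloured by role, with bars for the software's error. The grey band is the middle range of all 9026 measured named genes, from -0.27 to 0.25, and dashed lines mark 2-fold. Oas1a and Dhx58 lie above the band and 7 members, from Parp14 down to Gbp2, lie below it.

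The ISRE letters stood in promoters of genes at both ends of the range, but mostly at its lower end. All 7 members with a negative difference larger than the error held a match. Of the 3 with a positive one, Oas1a held a match, and Dhx58 and Isg15 had no promoter in the table. The 12 measured members with an ISRE match had differences from -1.01 (Gbp2) to 0.66 (Oas1a), with 4 positive and 8 negative and a median of -0.39. The 6 measured members whose promoter held no match ranged from -0.16 (Ifi35) to 0.16 (Tlr3), with 3 positive and 3 negative and a median of 0.015. The other measured members, Dhx58, Isg15, Usp18 and Mx2, had no promoter in the table. They differed by 0.55, 0.24, 0.19 and -0.11 and are in neither set. Spike-in scaling, which added 0.55 to every gene, makes both medians positive, and a difference between the sets was not tested. Near and far matches were both found among the genes with low differences. The matches of Gbp2 and Eif2ak2 began 31 and 16 bases before the start, but those of Bst2 (-0.67) began 131 and 125 bases before it. Those of Oas1a, the highest member, began at 41 and 35 bases. The match of Rsad2 began at 147 bases, and those of Ifi27 at 169 and 84. The match of Ifit3, which was undetected, began 44 bases before the start and has the same 10 letters as that of Ifi44 at 26 bases.

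**Figure D4:**
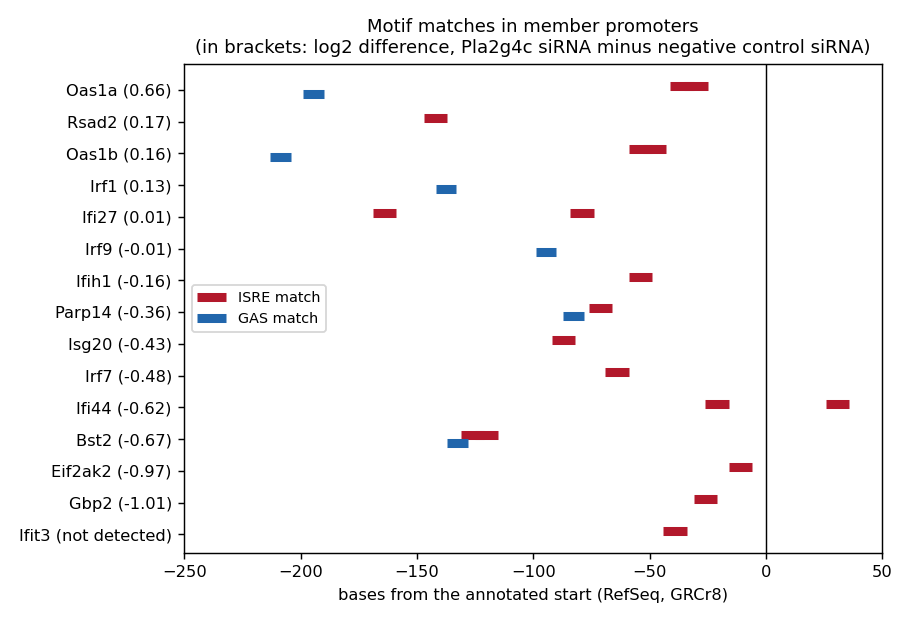
Position of ISRE (red) and GAS (blue) matches in the promoters of the 15 members that hold one, in bases from the annotated start, with genes ordered by their log2 difference (in brackets). Members with an ISRE are found from the top of the order, Oas1a at 0.66, to its foot, Gbp2 at -1.01, and in the undetected Ifit3. More of the measured ones have a negative than a positive difference.

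Among the other genes of the pathway, a few of the listed interferon-stimulated genes were at least 2-fold higher on the Pla2g4c siRNA array. The receptors and signal transducers had 8 measured genes of 11 listed, 0 of them at least 2-fold different, with a median of 0.096. Over all measured genes 2.91% were at least 2-fold higher and 3.05% lower, so lists of this size need hold no such gene. The highest was the kinase Jak2 at 0.42 ± 0.20 and the lowest Il10rb, a receptor chain for lambda interferons, at -0.56 ± 0.20. Of 23 adaptors, kinases and factors of the sensors 12 were measured and 0 were 2-fold different, with a median of 0.100. Sting1, the adaptor of cytosolic DNA sensing, was highest at 0.64 ± 0.23, and Traf6, a ubiquitin ligase of Toll-like receptor signalling, was lowest at -0.41 ± 0.21. Mavs, the mitochondrial adaptor of the helicases, differed by 0.084 ± 0.20. Of 8 feedback inhibitors 6 were measured, from Irf2bp1, a corepressor, at -0.75 ± 0.21 to Socs3, an inhibitor of JAK kinases, at 0.20 ± 0.21, and 0 were 2-fold different.

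In the list of other interferon-stimulated genes 27 of 50 were measured, with a median of 0.11, 17 positive and 10 negative. At least 2-fold higher were 3 of them, against 2.91% of all measured genes, and at least 2-fold lower 0, against 3.05%. At 1.5-fold, 7 of the 27 were higher, against 8.69% of all measured genes, and 0 were lower, against 10.3%. Cmpk2, a mitochondrial nucleotide kinase, had 57.3% on the Pla2g4c siRNA array against 22.3% on the negative control siRNA array, a difference of 1.36 ± 0.21. Cmpk2 is the next gene to Rsad2 in GRCr8, with 0 protein-coding genes between them, and the 2 neighbours differed by 1.36 and 0.17. The chemokine Cxcl10, which attracts T cells, was at 116% against 46.7%, a difference of 1.32 ± 0.20, while its neighbours Cxcl9 and Cxcl11 were well above background on neither array. Sp100, a protein of nuclear bodies, was at 149% against 74.5%, a difference of 1.003 ± 0.20, just past the 2-fold limit. Differences under other processing are not given for these 3 genes. The lowest of the list was Parp9, named above. Of all named genes, 2.37% were well above background in every spot of a probe on the Pla2g4c siRNA array only, and 0.943% on the other only. In this list Rtp4, Psmb8 and Epsti1 were of the first kind, Epsti1 dim at 1.33% against 0.722%. The feedback inhibitor Rnf125 was of the second kind, at 0.892% against 1.85%. Rtp4, a chaperone of receptor transport, stood well above background in 9 of 9 spots on the Pla2g4c siRNA array, against 0 of 9 on the other. Its levels were 5.62% against 0.969%. The first is 4.25-fold the lowest level that stood well above background on the negative control siRNA array, 1.32%. That fold is not a strict bound, since Cxcl9, at 1.90% there, did not count as well above background. Of the immunoproteasome genes, Psmb8 was at 12.5% against 1.72%, with 1 of 2 spots well above background on the negative control siRNA array. The others differed little, Psmb9 by -0.026 ± 0.20 at 885% against 901%, and Psmb10 by 0.21 ± 0.20. Tap2 and Tap1, the neighbours of Psmb8, differed by 0.11 and 0.14.

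Genes that handle siRNA were covered thinly, with 4 of 10 measured and none of the others matched to a probe. Tarbp2, a partner of Dicer that loads small RNA, was at 131% against 80.0%, a difference of 0.72 ± 0.20, and Dgcr8, of microRNA processing, was lowest at -0.048 ± 0.21. Prkra, an activator of PKR that also binds Dicer, differed by 0.020 ± 0.20. No member of this list was at least 2-fold different.

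**Figure D5:**
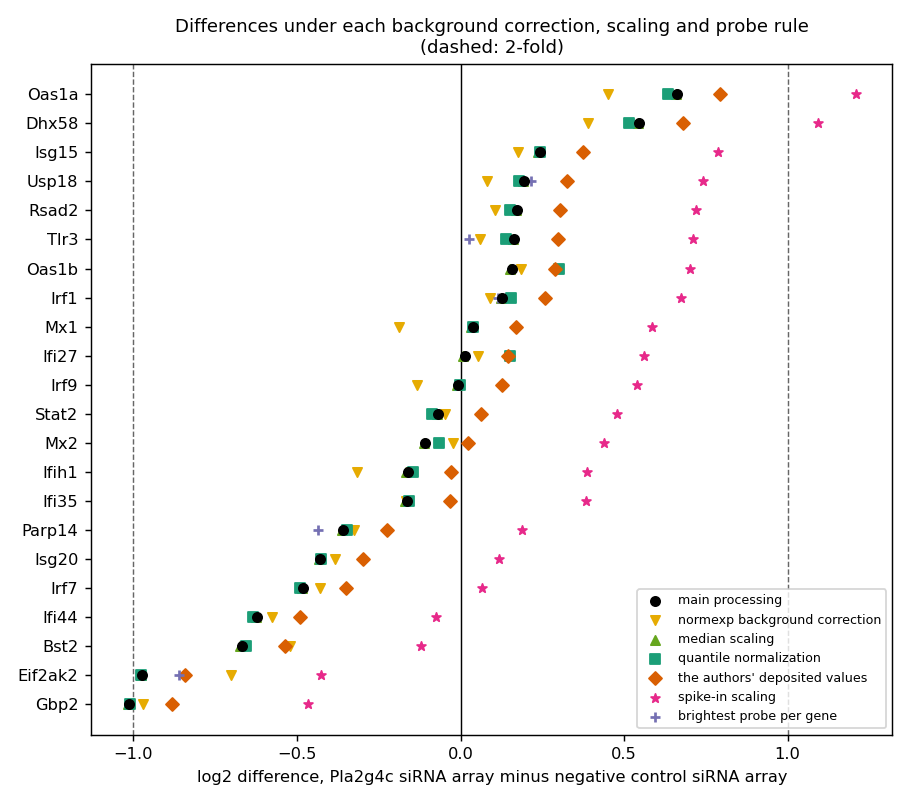
Log2 difference of the 22 measured members under the 75th percentile scaling (black) and 6 alternatives, with dashed lines at 2-fold. Points for median scaling lie on the black points, the deposited values are shifted to the right by a median of 0.13 over all genes and spike-in scaling by 0.55, which leaves Gbp2, Eif2ak2, Bst2 and Ifi44 below 0.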

How the data were processed

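RNA of both cultures was measured on Agilent one-colour rat arrays on the same slide and scan. Per the file headers, the authors' scanner files hold spot intensities from Feature Extraction 10.10.1.1, Agilent's image software (version 10.10 in the submitters' processing notes), background-subtracted and detrended within each array and not normalized between arrays. The deposited normalized intensities equal the processed signal times a constant, 1.50 for the Pla2g4c siRNA array and 1.77 for the negative control siRNA array, as found by dividing them. The sources used here do not say how it was set. The flags (0 or 1) are the authors' deposited ones.

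Outlier-flagged spots (381 and 466 of 58717 gene spots) were dropped from both arrays, the log2 levels of a probe's spots were averaged, and a gene is the mean of its measured probes. Of the gene spots 63.1% and 61.9% were well above background and 0 were saturated. The number of arrays limits the precision. Probes were named through RefSeq accessions (18006 probes, 59.3%). Normexp (offset 50) used the median spot signal, since no mean signal column was held. The tools were Python 3.11.15 and limma 3.58.1 in R 4.3.3, and the steps were tested on simulated data. Members and lists were chosen with earlier results of these data known. The genes named are every member with a probe and, from each pathway list, its highest and lowest measured gene and all at least 2-fold different. A few more were chosen after their values were seen, for their role, position or detection (Mavs, Prkra, Dtx3l, Oas1i, Oasl2, Psmb8, Psmb9, Psmb10, Rtp4, Epsti1, Rnf125 and their neighbours). Results for some listed genes are not reported here.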

Additional observations from a re-analysis of the deposited data

How the results depend on the processing

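No paired analysis was possible because each group has 1 array. Under median scaling, quantile normalization, flagged spots kept and the brightest probe per gene, the counts of members at least 2-fold higher (0) and lower (1) did not move. Keeping flagged spots could not move them, since no spot of a member was flagged. The lower count was 0 under normexp, the deposited values and spike-in scaling, and the higher count was 2 under spike-in scaling (Oas1a and Dhx58). With 1.5-fold they were 1 and 4. The members' median was 0.51 under spike-in scaling. Over all genes, 263 were at least 2-fold higher and 275 lower under the main processing, against 369 and 191 in the deposited values, 116 and 154 under normexp, 1169 and 68 under spike-in scaling, 539 and 765 without the filter on dim probes, and 784 and 929 at 1.5-fold. Without that filter the members' median was -0.16, and so was that of all genes. Of the 22 members 9 changed sign under at least 1 alternative, and 19 moved by less than the error of their difference under every alternative except spike-in scaling. Normexp moved Eif2ak2, Mx1 and Oas1a by more than that error, and the cause was not tested. No untransfected culture and no second array bears on any difference.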
